A study of Mus musculus with 46 samples.

Results

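*Mybph*, which encodes myosin-binding protein H, was examined together with *Mybpc1*, *Mybpc2* and *Adora1*, 4 of the 17859 genes with a row in either of the study's count tables. *Mybph* was chosen by its measured differences with genotype, with ORX and with DHT in these same libraries, including the difference between the genotypes in both treatment responses. Its values are therefore a description, and no test of *Mybph* is given. *Mybpc1* and *Mybpc2* were selected as the myosin-binding protein C genes with a row, and *Adora1* was selected because it overlaps *Mybph* on the opposite strand, and these 3 genes were tested. The *Adora1* row may hold reads of *Mybph*, so its tests are not independent of the choice of *Mybph*. *Mybpc3* and *Mybphl*, the other genes of the family, have no row in either table and were not analysed here.

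Myosin-binding proteins lie along the thick filament of the sarcomere, where the C proteins form transverse stripes and bind both myosin and actin. *Mybpc1* encodes the slow skeletal form and *Mybpc2* the fast skeletal form, while *Mybph* encodes a shorter relative built from the same kinds of immunoglobulin and fibronectin domains, known mainly from fast fibers. *Adora1* encodes the adenosine A1 receptor, a G protein–coupled receptor that is not part of the sarcomere.

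The study asked how loss of α-actinin-3, the fast-fiber Z-disc protein encoded by *Actn3*, alters the response of muscle to androgens, and RNA was sequenced in 2 experiments on C57BL6 mice (C57BL/6J in the methods of the study), wild type (WT) or carrying an *Actn3* knockout (KO) that is not limited to muscle. In the ORX experiment, male mice aged 8 to 10 weeks had their testes removed (orchidectomy, ORX) or underwent sham surgery, and gastrocnemius was taken 12 weeks later. In the DHT experiment, female mice aged 4 to 5 weeks received implants under the skin that were empty or held 10 mg of the androgen dihydrotestosterone (DHT), and spinalis was taken after 6 weeks. Each library held 29.5 to 37.5 M counts for the 6 KO-sham mice, 43.4 to 50.3 M for the 6 WT-sham mice, 26.7 to 48.5 M for the 5 KO-ORX mice and 39.9 to 55.4 M for the 6 WT-ORX mice. The range was 42.5 to 47.8 M for the 5 KO-empty mice, 37.3 to 51.2 M for the 5 WT-empty mice, 34.9 to 51.7 M for the 6 KO-DHT mice and 34.8 to 53.9 M for the 6 WT-DHT mice. The labels describe 6 KO-ORX mice, and the sixth was not analysed here. Every KO-sham library was smaller than every WT-sham library, and the part of this depth difference in the genotype comparison was not tested. Among the WT-DHT mice, the libraries of 39KR and 50KR stood apart, with a chi-squared per degree of freedom of 284.75 to 630.51 against the other 4, which differed from one another by 20.83 to 42.49. KO-DHT mice 6KR and 25KR differed from the rest of their group by 111.25 to 269.5, where the rest differed by 24.62 to 91.36. For WT-empty mice 4KR and 7KR these values were 70.71 to 186.99 and 25.36 to 54.68. No fit left out either of these pairs together. Sex, muscle, age and time differ between the experiments and cannot be told apart, and the tables were normalized separately, so no test was made between them. Within an experiment, the comparisons share their control mice.

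Values are CPM, which are counts scaled to a common library size with edgeR's TMM factors, or RPKM, the same values per kilobase of exon, where genes are set side by side. Differences are log2 fold changes from edgeR's quasi-likelihood fits, given ± standard error (SE), and a gene was called at an adjusted p of at most 0.01 in treatment or genotype comparisons and at most 0.05 in the interaction, which is the KO response minus the WT response. The targeted gene matched the genotype labels in all 45 libraries. *Actn3* ranged from 5977 to 9617 CPM in the WT mice and from 34.3 to 54.8 CPM in the KO mice of the ORX experiment, and from 6164 to 10353 CPM and 56.6 to 83.2 CPM in those of the DHT experiment.

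In male gastrocnemius, *Mybph* was low in WT-sham mice and high after ORX in both genotypes. WT-sham mice had between 3.54 and 26.4 CPM (median 14.9, 161 to 1176 counts), and WT-ORX mice had between 85.6 and 149 CPM (median 124). KO-sham mice had between 39.6 and 81.7 CPM (median 53.9), and the KO-ORX mice had 106, 151, 138, 132 and 116 CPM. The lowest value came from WT-sham replicate 5, and KO-sham lay wholly above WT-sham and wholly below both ORX groups, which overlapped each other. Mean CPM ± SD had the order WT-sham (15.5 ± 8.02, 6 mice), KO-sham (57.6 ± 17.1, 6 mice), WT-ORX (122 ± 23.7, 6 mice), KO-ORX (129 ± 17.7, 5 mice). The log2 difference between WT-ORX and WT-sham was 2.98 ± 0.28, or 7.89-fold, and that between KO-ORX and KO-sham was 1.16 ± 0.27, or 2.23-fold. KO-sham exceeded WT-sham by 1.89 ± 0.27, whereas KO-ORX and WT-ORX differed by 0.07 ± 0.26. The interaction was −1.82 ± 0.38. Without WT-sham replicate 5 these values were 2.77 ± 0.21 for ORX in WT, 1.69 ± 0.20 for KO-sham against WT-sham and −1.61 ± 0.27 for the interaction. In whole muscle, a change in the share of cells that transcribe *Mybph* and a change in its RNA per cell cannot be told apart.

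In female spinalis, *Mybph* was high with empty implants, and with DHT it was 24.1-fold lower in WT mice and 1.5-fold lower in KO mice. The WT-empty mice had 251, 227, 205, 241 and 213 CPM, and the WT-DHT mice had between 4.68 and 15.2 CPM (median 10.2, 239 to 583 counts). The KO-empty mice had 265, 359, 303, 239 and 353 CPM, and the KO-DHT mice had between 182 and 221 CPM (median 206). Every WT-DHT mouse lay far below every other mouse of the experiment, every KO-DHT mouse lay below every KO-empty mouse, and the KO-empty and WT-empty ranges overlapped. Mean CPM ± SD had the order WT-DHT (9.51 ± 3.79, 6 mice), KO-DHT (203 ± 17.2, 6 mice), WT-empty (227 ± 19.2, 5 mice), KO-empty (304 ± 52.9, 5 mice). The log2 difference between WT-DHT and WT-empty was −4.59 ± 0.20, a level 24.1-fold lower, and that between KO-DHT and KO-empty was −0.58 ± 0.18. KO-empty exceeded WT-empty by 0.42 ± 0.19 and KO-DHT exceeded WT-DHT by 4.43 ± 0.20, or 21.5-fold, with an interaction of 4.01 ± 0.27. Without WT-DHT mice 39KR and 50KR, a choice made after seeing the data, DHT in WT gave −4.88 ± 0.21, KO-DHT against WT-DHT 4.71 ± 0.20 and the interaction 4.30 ± 0.24.

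**Figure D1:**
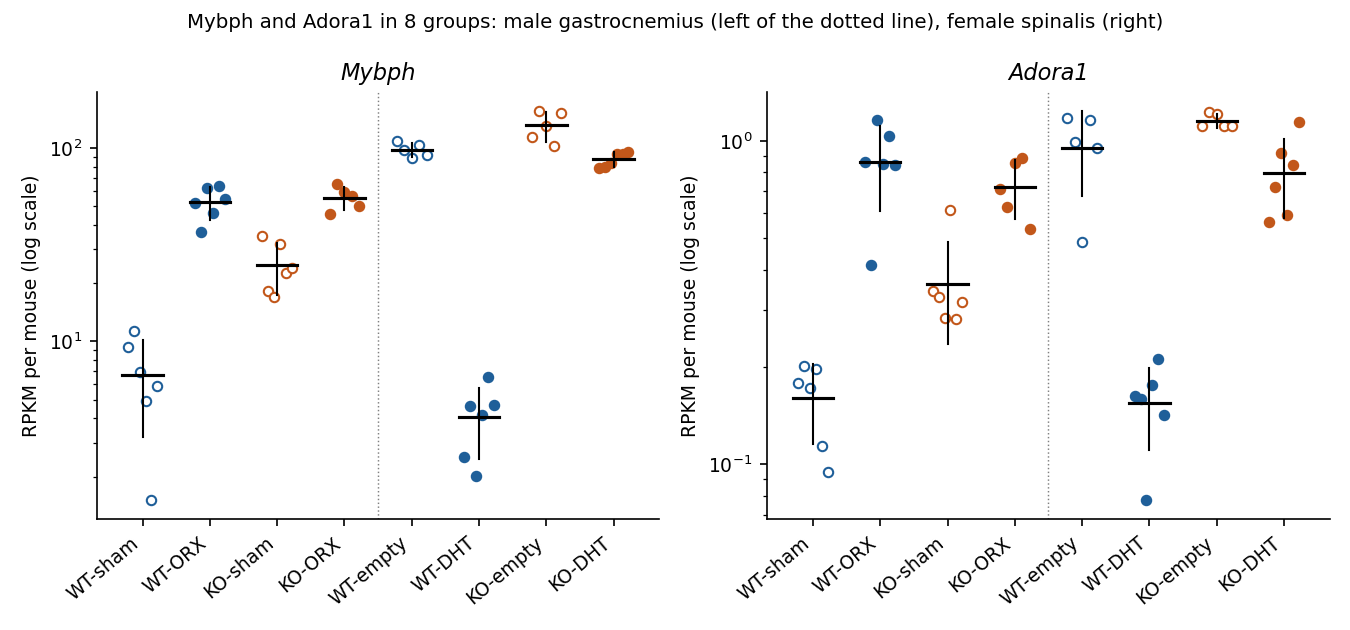
RPKM of *Mybph* and *Adora1* in each of the 45 mice, on log axes, in 4 groups of male gastrocnemius and 4 of female spinalis, with WT in blue, KO in orange, sham or empty as open circles and ORX or DHT as filled circles. Bars are the group mean and SD, and the lowest *Mybph* means are those of WT-DHT (4.08 RPKM) and WT-sham (6.66 RPKM).

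Ordered by mean RPKM, *Mybph* ran from 4.08 in WT-DHT and 6.66 in WT-sham through 24.7 in KO-sham, 52.5 in WT-ORX, 55.2 in KO-ORX, 87.1 in KO-DHT and 97.7 in WT-empty to 130 in KO-empty. The ranges of WT-DHT and WT-sham overlapped, as did those of WT-ORX and KO-ORX, of KO-DHT and WT-empty, and of WT-empty and KO-empty. KO-sham overlapped neither neighbor, and a gap also separated KO-ORX from KO-DHT. The order as a whole, with WT-DHT beside WT-sham and KO-ORX beside KO-DHT, sets values of separately normalized tables side by side. WT-sham and WT-DHT thus stood at the bottom, and KO-sham and KO-DHT stood higher than these in each experiment. The coefficient of variation of *Mybph* was 51.7% in WT-sham, with replicate 5 included, 39.9% in WT-DHT, 29.6% in KO-sham, 19.4% in WT-ORX, 17.4% in KO-empty, 13.7% in KO-ORX, 8.49% in KO-DHT and 8.42% in WT-empty.

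Among all genes ranked by log2 fold change, *Mybph* was number 4 from the top of 17514 for ORX in WT, number 96 for ORX in KO, number 7 for KO-sham against WT-sham and number 5 from the bottom for the ORX interaction. In the DHT experiment it was number 5 from the bottom of 16987 for DHT in WT and number 1125 from the bottom for DHT in KO. It was number 3 from the top both for KO-DHT against WT-DHT and for the interaction. These ranks describe the gene that was picked for them.

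*Mybph* (ENSMUSG00000042451) lies on the plus strand at chr1:134193448-134201232 in the GENCODE M21 annotation of GRCm38, and *Adora1* (ENSMUSG00000042429) on the minus strand at chr1:134199223-134235431. Their exons share 1162 bases in 3 stretches between 134199714 and 134201232, all within the last exon of *Adora1* (134199223 to 134203590). This is 49.9% of the 2329 exonic bases of *Mybph* and 20.1% of the 5785 exonic bases of *Adora1*. The libraries were made with a stranded kit, but whether the counting used the strand is not given in the sources used here, so reads of the shared stretches cannot be told apart by gene. The counts were made on GRCm39, and these positions serve only to show the overlap.

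**Figure D2:**
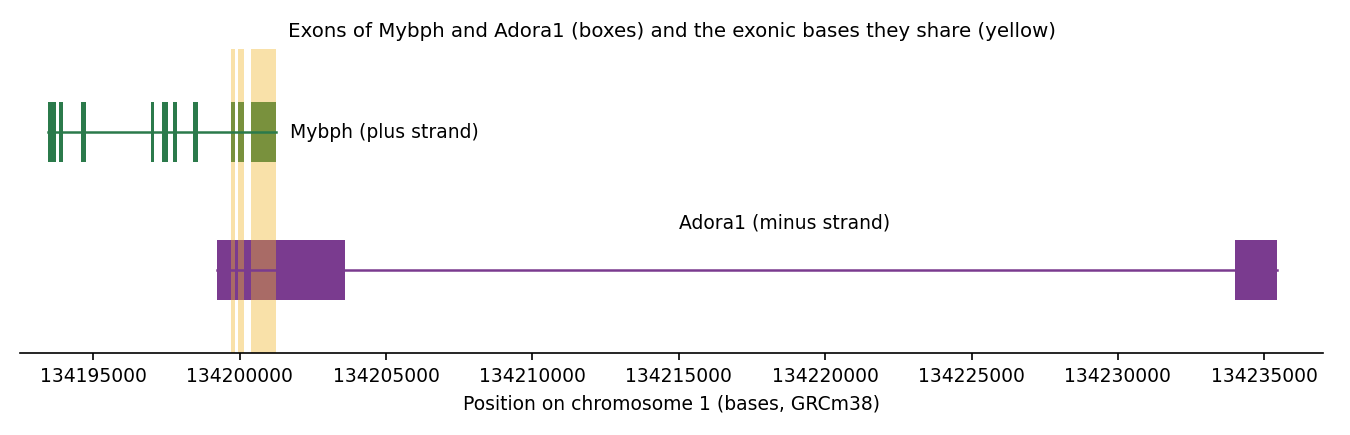
Exons of *Mybph* (plus strand) and *Adora1* (minus strand) as boxes along chromosome 1 in GRCm38 coordinates, with exonic bases that both genes hold shaded yellow. The shaded stretches make up 1162 bases and fall in the last exon of *Adora1*.

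*Adora1* was scarce, with 23 to 353 counts per library, and followed the same order of groups as *Mybph* at its lower end. WT-sham mice had between 0.549 and 1.17 CPM (median 1.02), WT-ORX mice between 2.39 and 6.69 (median 4.94), KO-sham mice between 1.63 and 3.54 (median 1.87), and the KO-ORX mice had 4.11, 3.62, 4.94, 5.13 and 3.09 CPM. The WT-empty mice had 6.79, 5.73, 2.81, 6.73 and 5.52 CPM, the WT-DHT mice between 0.450 and 1.22 (median 0.933), the KO-empty mice 6.42, 7.08, 7.01, 6.43 and 6.43, and values in KO-DHT lay between 3.26 and 6.62 CPM (median 4.52). WT-sham and WT-DHT stood below every other group of their experiment without overlap. In mean RPKM, across the separately normalized tables, the order was WT-DHT 0.155, WT-sham 0.160, KO-sham 0.361, KO-ORX 0.722, KO-DHT 0.796, WT-ORX 0.859, WT-empty 0.954 and KO-empty 1.15. WT-DHT overlapped WT-sham, KO-sham overlapped KO-ORX, and each later neighbor overlapped the next.

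The *Adora1* row may hold *Mybph* reads, and *Mybph* was chosen by these same comparisons, so the tests of *Adora1* are descriptions of its row. After ORX in WT the row was higher by 2.43 ± 0.23, with 6 of 6 WT-ORX mice above the WT-sham mean (edgeR adjusted p = 3.2e-08). Of the 3 tested genes 1 was thus called, where 5.45% of all genes were. In KO mice *Adora1* rose by 1.00 ± 0.23 after ORX, in 5 of 5 mice (edgeR adjusted p = 0.0049), again 1 of 3 against 5.57% of all genes, but the call was lost without any single mouse among 8 of the 11. KO-sham mice had more *Adora1* than WT-sham mice, by 1.18 ± 0.24 in 6 of 6 mice (edgeR adjusted p = 0.0016), 1 of 3 against 5.30%, a call that limma-voom did not make. KO-ORX and WT-ORX differed by −0.25 ± 0.22 (edgeR adjusted p = 0.61), where 3.80% of all genes were called. The ORX interaction of −1.43 ± 0.33 did not pass its threshold (edgeR adjusted p = 0.088), in a comparison that called 4 genes, or 0.0228%, and DESeq2 did call it. The *Adora1* row of KO-sham held a high value of 3.54 CPM in replicate 4.

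With the same limit, the *Adora1* row was lower with DHT in WT, at a log2 fold change of −2.64 ± 0.23. There 6 of 6 WT-DHT mice lay below the WT-empty mean (edgeR adjusted p = 3.8e-09), with 1 of 3 tested genes called against 11.3% of all genes. In KO mice the DHT difference was −0.53 ± 0.20 (edgeR adjusted p = 0.096), against 4.62% of all genes called. KO-empty and WT-empty differed by 0.27 ± 0.21 (edgeR adjusted p = 0.48), with 4.25% of genes called. KO-DHT mice exceeded WT-DHT mice by 2.38 ± 0.22, in 6 of 6 mice (edgeR adjusted p = 2.2e-08), 1 of 3 against 11.6% of all genes. The DHT responses of the genotypes differed, with an interaction of 2.10 ± 0.30 (edgeR adjusted p = 0.00012), 1 of 3 against 3.24%. Without WT-DHT mice 39KR and 50KR these *Adora1* values were −2.73 ± 0.26 for DHT in WT (edgeR adjusted p = 8.6e-08) and 2.47 ± 0.26 for KO-DHT against WT-DHT (edgeR adjusted p = 4.3e-07), and the interaction was called (edgeR adjusted p = 0.00029).

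Because the exons overlap, the *Adora1* counts were also set against the *Mybph* counts of the same mice. Summed over a group, *Adora1* had 5.97% as many counts as *Mybph* in WT-sham, 4.06% in WT-ORX, 3.70% in KO-sham, 3.32% in KO-ORX, 2.45% in WT-empty, 9.64% in WT-DHT, 2.21% in KO-empty and 2.28% in KO-DHT. Per mouse the share was highest where *Mybph* was lowest, at 18.6% in WT-sham replicate 5, and 1.37% at its lowest. All log2 differences of *Adora1* had the sign of those of *Mybph* except in KO-ORX against WT-ORX. When both rows were added into 1, the *Mybph* differences became 2.95 for ORX in WT, 1.15 for ORX in KO, −4.49 for DHT in WT and −0.58 for DHT in KO. How many *Adora1* counts stem from *Mybph* transcripts was not tested.

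*Mybpc1* (ENSMUSG00000020061, chr10:88518279-88605152, minus strand), the slow skeletal form, was abundant in every group and was not called in any of the 10 comparisons. WT-sham mice had between 951 and 1704 CPM (median 1201), WT-ORX between 919 and 1107 (median 1041), KO-sham between 1169 and 1731 (median 1403), and the KO-ORX mice had 1611, 1390, 1185, 1149 and 963 CPM. The WT-empty mice had 863, 857, 670, 757 and 903 CPM, WT-DHT mice between 507 and 1226 (median 767), the KO-empty mice 1369, 870, 1144, 1268 and 948, and KO-DHT mice between 690 and 998 CPM (median 804). The ranges overlapped in each treatment and genotype comparison. Of the treatment and genotype differences, the furthest from 0 were 0.47 ± 0.17 for KO-empty against WT-empty, with 5 of 5 mice above the WT-empty mean (edgeR adjusted p = 0.087), and −0.44 ± 0.16 for DHT in KO, with 6 of 6 mice below the KO-empty mean (edgeR adjusted p = 0.085). The DHT interaction was −0.45 ± 0.23 (edgeR adjusted p = 0.36). ORX gave −0.29 ± 0.12 in WT (edgeR adjusted p = 0.13) and −0.16 ± 0.12 in KO (edgeR adjusted p = 0.45). DHT in WT gave 0.01 ± 0.16 (95% interval −0.31 to 0.33), a difference whose sign changed with library-size scaling and with limma-voom, and 0.17 ± 0.15 without WT-DHT mice 39KR and 50KR. Of its 10 comparisons, 4 had an unadjusted p under 0.05 in edgeR and 5 in DESeq2, and DESeq2 and limma-voom called 0.

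*Mybpc2* (ENSMUSG00000038670, chr7:44501699-44524656, minus strand), the fast skeletal form, was the most abundant of the 4 genes. WT-sham mice had between 4622 and 5838 CPM (median 4949), WT-ORX between 4431 and 6565 (median 5132), KO-sham between 4250 and 5414 (median 4593), and the KO-ORX mice had 4681, 4600, 4971, 4734 and 4616 CPM. The WT-empty mice had 6657, 6803, 7147, 5899 and 7003 CPM, WT-DHT mice between 5962 and 7486 (median 7011), the KO-empty mice 5470, 6067, 5559, 4740 and 6136, and KO-DHT mice between 5544 and 6271 CPM (median 5886). All of these groups overlapped with the group they were compared with. The treatment differences lay between 0.02 ± 0.081 for ORX in KO and 0.08 ± 0.076 for DHT in KO, none of them called. The genotype differences of the DHT experiment were negative and not called, −0.26 ± 0.079 for KO-empty against WT-empty, in 5 of 5 mice (edgeR adjusted p = 0.039), and −0.23 ± 0.072 for KO-DHT against WT-DHT, in 6 of 6 mice (edgeR adjusted p = 0.029). The latter was called without WT-DHT mouse 5KR, at −0.27 (edgeR adjusted p = 0.00967), and was −0.17 ± 0.078 without WT-DHT mice 39KR and 50KR (edgeR adjusted p = 0.15). In gastrocnemius the genotype differences were −0.11 ± 0.077 and −0.16 ± 0.081. Unadjusted p-values were under 0.05 in 2 of the 10 comparisons, and edgeR, DESeq2 and limma-voom called 0.

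**Figure D3:**
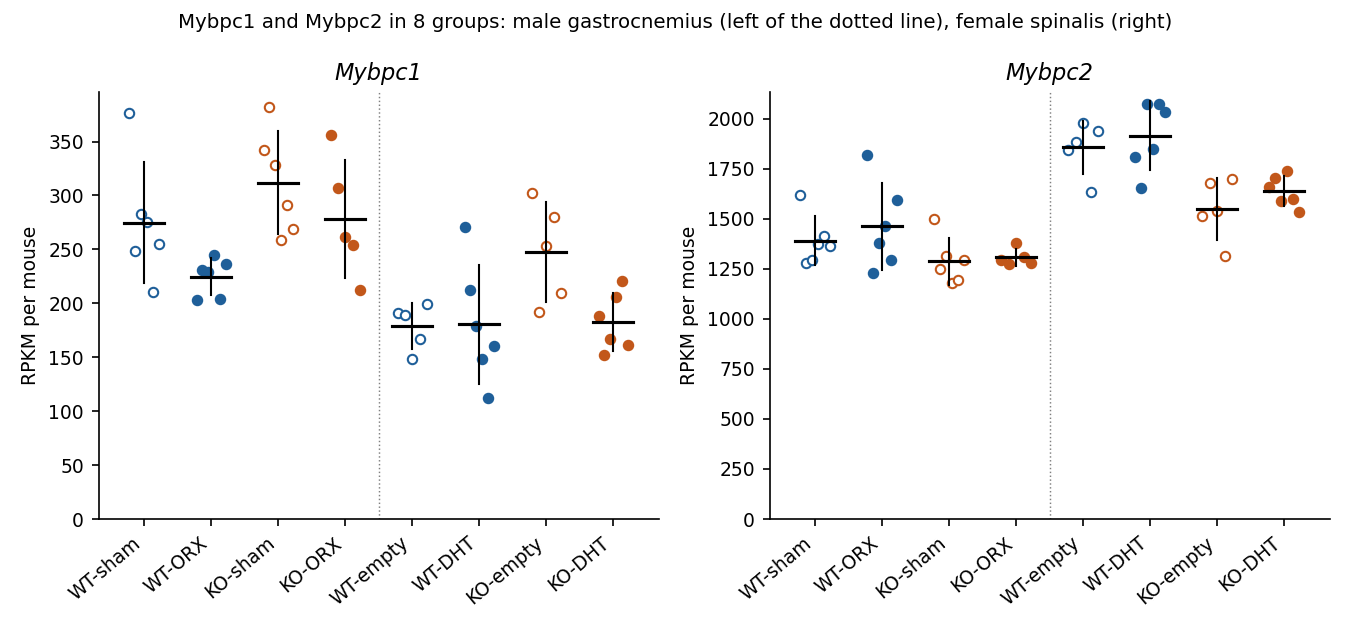
RPKM of *Mybpc1* and *Mybpc2* in each of the 45 mice, on linear axes from 0, with WT in blue, KO in orange, sham or empty as open circles and ORX or DHT as filled circles, and bars for the group mean and SD. Group means lie between 179 and 312 RPKM for *Mybpc1* and between 1288 and 1915 RPKM for *Mybpc2*.

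Per kilobase of exon, *Mybpc2* was the highest of the family in every group, from 1288 RPKM in KO-sham to 1915 in WT-DHT, and *Mybpc1* ranged from 179 in WT-empty to 312 in KO-sham. *Mybph* reached 130 RPKM in KO-empty and fell below both C genes in every group. Its RPKM uses all its exonic bases, of which 49.9% are shared with *Adora1*. How reads of these bases were counted is not given, so its place below *Mybpc1* carries that limit. For *Mybpc1* the order from low to high was WT-empty, WT-DHT, KO-DHT, WT-ORX, KO-empty, WT-sham, KO-ORX and KO-sham, and for *Mybpc2* it was KO-sham, KO-ORX, WT-sham, WT-ORX, KO-empty, KO-DHT, WT-empty and WT-DHT. All neighbors in both orders overlapped, and both orders span the separately normalized tables.

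To show the region before the start of *Mybph*, the gene around which the others were selected, the RefSeq promoter sequences of GRCm38.p6 were searched on both strands for AGAACA, the letters of an androgen receptor motif, and for the E-box CANNTG, which MyoD and myogenin bind. Each sequence runs from 250 bases before the start to 50 after. The *Mybph* promoter held AGAACA 0 times, a motif found in 19.0% of 32851 promoters, and 1 E-box, a motif found in 72.3% of them. The E-box is CAGCTG and begins 79 bases before the start. *Mybpc1* held AGAACA 1 time and 3 E-boxes, *Mybpc2* held 0 and 2, and *Adora1* has a pair of entries, with 0 AGAACA in both and 0 or 2 E-boxes. These matches are descriptions of letters only. The 250 bases before *Mybph* (chr1:134193198-134193447, plus strand), with the E-box in capitals, read:
*Mybph*: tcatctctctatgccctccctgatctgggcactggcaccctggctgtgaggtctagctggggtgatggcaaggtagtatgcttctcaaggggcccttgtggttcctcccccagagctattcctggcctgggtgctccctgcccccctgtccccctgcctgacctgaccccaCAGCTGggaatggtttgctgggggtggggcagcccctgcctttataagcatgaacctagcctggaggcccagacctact

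The 250 kb on either side of *Mybph* hold 9 genes with a row besides *Adora1*, and at most 3 of them were called in any comparison. That count was reached for ORX in KO, where 5.57% of all genes were called. *Chil1*, a chitinase-like gene that ends 3266 bases before *Mybph* on the same strand, was near the detection floor, at 0.216 to 0.550 CPM in WT-sham and 0.626 to 3.53 in WT-ORX. *Chil1* rose after ORX in WT by 2.27 ± 0.39 (edgeR adjusted p = 0.00025) and in KO by 2.21 ± 0.44 (edgeR adjusted p = 0.0014), and DHT gave −0.57 ± 0.55 in WT (edgeR adjusted p = 0.55). *Myog*, which encodes the muscle transcription factor myogenin and starts 88756 bases after *Mybph*, rose after ORX in WT by 0.80 ± 0.14 (edgeR adjusted p = 0.00033) and in KO by 0.71 ± 0.15 (edgeR adjusted p = 0.0026), a call lost without KO-ORX replicate 2. With DHT in WT *Myog* fell by 1.06 on the log2 scale (SE 0.24, edgeR adjusted p = 0.0025), against −0.07 ± 0.24 in KO (edgeR adjusted p = 0.89). KO-DHT exceeded WT-DHT for *Myog* by 0.97 ± 0.23 (edgeR adjusted p = 0.0039), and its DHT interaction of 0.98 ± 0.34 was not called (edgeR adjusted p = 0.13). *Fmod* rose after ORX in KO by 1.23 ± 0.26 (edgeR adjusted p = 0.0027), a call lost without KO-ORX replicate 1, and *Cyb5r1* rose with DHT in WT by 0.55 ± 0.077 (edgeR adjusted p = 8.3e-06). *Cyb5r1* was also higher in KO-empty than in WT-empty, by 0.46 ± 0.080 (edgeR adjusted p = 0.00058), with a DHT interaction of −0.51 ± 0.11 (edgeR adjusted p = 0.0065). *Ppfia4* was higher in KO with either implant, by 0.92 ± 0.22 for KO-empty against WT-empty (edgeR adjusted p = 0.0096), a call lost in 15 of 22 fits without 1 of the mice and without WT-DHT mice 39KR and 50KR (edgeR adjusted p = 0.011), and by 0.78 ± 0.21 for KO-DHT against WT-DHT (edgeR adjusted p = 0.0089). Of 22 fits without 1 of the mice, 11 lost the KO-DHT against WT-DHT call of *Ppfia4* and 6 that of *Myog*, and limma-voom called 1 gene of the 9 there. *Adipor1* was lower in KO-sham than in WT-sham, at −0.23 ± 0.042 (edgeR adjusted p = 0.00047), and lower in KO-ORX than in WT-ORX, at −0.25 ± 0.044 (edgeR adjusted p = 0.00048). *Btg2*, *Gm38140* and *Tmem183a* were not called in any comparison. In the 2 comparisons with none called, 4 unadjusted p-values lay under 0.05 and DESeq2 and limma-voom called 0. Over all 10 comparisons, the medians of the 9 genes ran from −0.16 to 0.41.

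Thick filament and M-band genes were called in both directions. All 21 listed genes had a row. In the ORX experiment 3 were called for ORX in WT, where 5.45% of all genes were, and 2 for ORX in KO (5.57%). For KO-sham against WT-sham 2 were called (5.30%), 2 for KO-ORX against WT-ORX (3.80%) and 0 in the interaction (0.0228%). The lower call for ORX in each genotype was *Myh1*, a myosin gene added after its values were seen, so these counts are descriptions. Without 1 of the mice, the count for ORX in KO fell to 1 in 6 of 23 fits. The count for KO-ORX against WT-ORX ran from 1 to 4 and moved in 11 of 23. In the DHT experiment 4 were called for DHT in WT (11.3%), 3 for DHT in KO (4.62%), 2 for KO-empty against WT-empty (4.25%), 3 for KO-DHT against WT-DHT (11.6%) and 2 in the interaction (3.24%). In the ORX interaction edgeR, DESeq2 and limma-voom called 0, with 3 genes at an unadjusted p under 0.05. List medians ran from −0.13 to 0.16, where those of all genes ran from −0.011 to 0.014. *Obsl1*, encoding the M-band linker obscurin-like 1, rose after ORX in WT by 0.80 ± 0.092 (edgeR adjusted p = 7.7e-07) and in KO by 0.73 ± 0.096 (edgeR adjusted p = 1.1e-05). With DHT *Obsl1* gave −0.88 ± 0.086 in WT (edgeR adjusted p = 3.4e-08) and −0.35 ± 0.085 in KO (edgeR adjusted p = 0.0094), and these responses differed by 0.53 ± 0.12 (edgeR adjusted p = 0.011). The *Obsl1* call for DHT in KO was lost in 11 of 22 fits that each left out 1 mouse and without WT-DHT mice 39KR and 50KR (edgeR adjusted p = 0.011), and the list count of 3 there fell to as few as 0. KO exceeded WT for *Obsl1* by 0.72 ± 0.090 with empty implants (edgeR adjusted p = 1.2e-05) and by 1.25 ± 0.083 with DHT (edgeR adjusted p = 8.2e-11). *Igfn1*, encoding an immunoglobulin and fibronectin domain protein of muscle, was lower in KO in 3 of the 4 genotype comparisons, at −1.27 ± 0.23 for KO-empty against WT-empty (edgeR adjusted p = 0.00080), −2.70 ± 0.22 for KO-DHT against WT-DHT (edgeR adjusted p = 2.2e-09) and −2.45 ± 0.29 for KO-sham against WT-sham (edgeR adjusted p = 1.9e-06), and was not called for KO-ORX against WT-ORX, at −1.09 ± 0.29 (edgeR adjusted p = 0.020). *Igfn1* rose with DHT in WT by 1.44 ± 0.22 (edgeR adjusted p = 3.5e-05), against 0.01 ± 0.22 in KO (edgeR adjusted p = 0.98), with a DHT interaction of −1.43 ± 0.31 (edgeR adjusted p = 0.0073). *Mylpf*, a fast regulatory light chain, rose by 0.44 ± 0.071 after ORX in WT (edgeR adjusted p = 0.0001), and *Myom2*, encoding the M-band protein myomesin 2, was higher by 0.53 ± 0.088 in KO-sham than in WT-sham (edgeR adjusted p = 0.00016) and by 0.48 ± 0.092 in KO-ORX than in WT-ORX (edgeR adjusted p = 0.00095).

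Among the 9 slow fiber genes, *Casq2*, the slow and cardiac calsequestrin, and the tropomyosin gene *Tpm3* were the called members. *Casq2* rose after ORX in WT by 0.43 ± 0.11 (edgeR adjusted p = 0.0090) and in KO by 0.45 ± 0.11 (edgeR adjusted p = 0.0092), the only call of the list in each, where DESeq2 called 1 gene in each genotype and limma-voom 1 in WT and 0 in KO. With DHT *Casq2* was lower in WT, at −0.70 ± 0.16 (edgeR adjusted p = 0.0030), and in KO, at −1.08 ± 0.16 (edgeR adjusted p = 9.2e-05). *Tpm3* gave −1.47 ± 0.36 for DHT in KO (edgeR adjusted p = 0.0089). Leaving out 1 mouse at a time ended the *Casq2* call for ORX in 13 of 23 fits in WT and 15 of 23 in KO, its DHT call in WT without WT-empty mouse 49KR, and the *Tpm3* call in 13 of 22. The list median was −0.99 for DHT in WT and −1.56 for DHT in KO, with 1 and 2 genes called (11.3% and 4.62% of all genes), and over the 10 comparisons it ran from −1.56 to 0.55. Unadjusted p-values under 0.05 were held by 8 of the 9 genes for DHT in WT and by 9 of 9 in KO. For DHT in KO, DESeq2 called 3 and limma-voom 4, and edgeR called between 1 and 6 when 1 mouse was left out. The slow myosin gene *Myh7*, added after its values were seen, gave −1.94 ± 0.54 for DHT in KO and was not called (edgeR adjusted p = 0.022). In the 6 comparisons with none called, at most 1 gene had an unadjusted p under 0.05 and DESeq2 and limma-voom called 0. The 11 fast fiber genes held at most 3 calls in a comparison, a count reached for ORX in WT (5.45% of all genes) and in KO (5.57%), and among the calls were *Tnnt3*, fast troponin T, at −0.41 ± 0.049 for KO-ORX against WT-ORX (edgeR adjusted p = 3.6e-06), *Tnni2*, fast troponin I, at −0.26 ± 0.049 for ORX in KO (edgeR adjusted p = 0.00073), and the calcium buffer *Pvalb* at 0.29 ± 0.064 for ORX in WT (edgeR adjusted p = 0.0030). *Tnni2* was higher with DHT in KO, by 0.36 ± 0.079 (edgeR adjusted p = 0.0044), a call lost in 7 of 22 fits without 1 of the mice. The count for ORX in KO fell from 3 to as few as 1 without 1 of the mice. There the call of *Tnnt3* was lost in 16 of 23 fits and that of *Myh1*, another gene added after its values were seen, in 6. For ORX in WT the lower *Myh1* call, 1 of the 3, was lost in 5 of 23. Both counts of 3 thus rest partly on a gene added with its values known, and are descriptions. *Tnnt3* was also lower in KO-empty than in WT-empty, at −0.37 ± 0.084 (edgeR adjusted p = 0.0062), a call lost in 6 of 22. In the 4 comparisons with none called, between 2 and 5 had an unadjusted p under 0.05, DESeq2 called 2 in all and limma-voom 1. List medians of the fast genes ran from −0.19 to 0.10.

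Of 12 denervation and regeneration genes, 11 had a row, and at most 4 were called in a comparison. That count was reached for DHT in WT, where 11.3% of all genes were called, for DHT in KO (4.62%) and for KO-DHT against WT-DHT (11.6%). *Musk*, the receptor kinase of the neuromuscular junction, was called in every comparison but the ORX interaction. *Musk* was lower after ORX in WT (−1.09 ± 0.14, edgeR adjusted p = 2.7e-06) and KO (−0.63 ± 0.15, edgeR adjusted p = 0.0067) and higher with DHT in WT (2.04 ± 0.13, edgeR adjusted p = 1.3e-11) and KO (1.07 ± 0.13, edgeR adjusted p = 2.8e-06). The *Musk* call for ORX in KO was lost in 6 of 23 fits that each left out 1 mouse. The DHT responses of *Musk* differed by −0.97 ± 0.17 (edgeR adjusted p = 0.0013). *Musk* was lower in KO in each genotype comparison, at −1.33 ± 0.14 with sham (edgeR adjusted p = 3.6e-07), −0.87 ± 0.15 with ORX (edgeR adjusted p = 0.00035), −0.72 ± 0.13 with empty implants (edgeR adjusted p = 0.00075) and −1.69 ± 0.12 with DHT (edgeR adjusted p = 1.5e-10). *Ncam1*, a cell adhesion molecule that rises in denervated fibers, was lower with DHT in WT (−0.84 ± 0.12, edgeR adjusted p = 8.5e-06) and KO (−1.07 ± 0.12, edgeR adjusted p = 9.4e-07). *Gadd45a*, a stress-response gene, was lower with DHT in WT (−0.89 ± 0.12, edgeR adjusted p = 3.2e-06) and KO (−0.61 ± 0.12, edgeR adjusted p = 0.0012) and higher after ORX in WT (0.66 ± 0.15, edgeR adjusted p = 0.0038), a call lost in 4 of 23 fits without 1 of the mice. In the comparison with none called, the ORX interaction, 2 had an unadjusted p under 0.05 and DESeq2 and limma-voom called 0. List medians ran from −0.40 to 0.26.

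LC3 and autophagy genes were listed because MyBP-H has been linked to LC3. All 10 had a row, and at most 3 were called in a comparison. That count was reached for ORX in KO, where 5.57% of all genes were called, and for DHT in WT (11.3%). *Map1lc3a*, an LC3 gene, was lower after ORX in WT (−0.55 ± 0.055, edgeR adjusted p = 6.1e-08) and KO (−0.60 ± 0.058, edgeR adjusted p = 7.6e-08) and higher with DHT in WT (0.49 ± 0.076, edgeR adjusted p = 4.4e-05) and KO (0.43 ± 0.076, edgeR adjusted p = 0.00058). *Map1lc3b*, another LC3 gene, was lower with DHT in WT (−0.37 ± 0.069, edgeR adjusted p = 0.00036), and its DHT interaction was 0.38 ± 0.097 (edgeR adjusted p = 0.029), a call lost in 7 of 22 fits that each left out 1 mouse and lost without both WT-DHT mice 39KR and 50KR (edgeR adjusted p = 0.062). *Map1lc3b* was higher in KO-DHT than in WT-DHT by 0.29 ± 0.066 (edgeR adjusted p = 0.0022), a call lost without the same pair (edgeR adjusted p = 0.021), and in KO-sham than in WT-sham by 0.20 ± 0.050 (edgeR adjusted p = 0.0073), a call lost in 8 of 23 fits without 1 of the mice. The autophagy receptor gene *Sqstm1* rose with DHT in WT by 0.52 ± 0.086 (edgeR adjusted p = 8e-05) and in KO by 0.49 ± 0.086 (edgeR adjusted p = 0.00049) and was lower after ORX in KO, at −0.31 ± 0.062 (edgeR adjusted p = 0.0014). *Gabarap* was lower in KO-ORX than in WT-ORX (−0.24 ± 0.048, edgeR adjusted p = 0.0014). In the 2 comparisons with none called, 3 unadjusted p-values lay under 0.05 and DESeq2 and limma-voom called 0. List medians ran from −0.08 to 0.07.

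Other adenosine genes were listed beside *Adora1*, and their differences from it were not tested. Of 7 listed, 6 had a row, and 1 was called for ORX in WT (5.45% of all genes), DHT in WT (11.3%), KO-DHT against WT-DHT (11.6%) and the DHT interaction (3.24%). *Adk*, encoding adenosine kinase, was lower with DHT in WT (−0.39 ± 0.079, edgeR adjusted p = 0.00073) and higher in KO-DHT than in WT-DHT (0.48 ± 0.076, edgeR adjusted p = 4.7e-05), with a DHT interaction of 0.51 ± 0.11 (edgeR adjusted p = 0.0091). The nucleoside transporter gene *Slc29a1* rose after ORX in WT by 0.22 ± 0.054 (edgeR adjusted p = 0.0079), a call lost in 12 of 23 fits that each left out 1 mouse. The 6 comparisons with none called held 9 unadjusted p-values under 0.05, and DESeq2 called 1 gene there and limma-voom 0. List medians ran from −0.10 to 0.38.

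The labelled tissue was checked with markers of skeletal muscle and of other cell types that whole muscle holds. The 5 skeletal muscle markers, led by *Myh4*, summed to group medians between 79000 and 141000 CPM. In KO-ORX against WT-ORX, where 3.80% of all genes were called, 4 of the 5 were lower, among them *Acta1*, skeletal actin, at −0.50 ± 0.059 (edgeR adjusted p = 2.4e-06) and *Ckm*, muscle creatine kinase, at −0.37 ± 0.079 (edgeR adjusted p = 0.0027), and the intermediate filament gene *Des* was lower after ORX in WT (−0.31 ± 0.058, edgeR adjusted p = 0.00057). For KO-ORX against WT-ORX the *Ckm* call was lost without KO-ORX replicate 1 or 2, and the *Des* call in 16 of 23 fits that each left out 1 mouse. Median summed levels were 698 to 1490 CPM for fibroblast markers (led by *Dcn*), 244 to 462 for adipocyte markers (*Fabp4*), 115 to 387 for erythrocyte markers (*Hbb-bs*), 118 to 186 for endothelium (*Pecam1*), 77.4 to 96.8 for smooth muscle (*Myh11*), 38.4 to 48.7 for macrophages (*Csf1r*) and 28.0 to 51.4 CPM for Schwann cells (*Mbp*). *Dcn* was higher with DHT in WT by 0.54 ± 0.11 (edgeR adjusted p = 0.0012) and in KO by 0.51 ± 0.11 (edgeR adjusted p = 0.0052), the latter a call lost in 6 of 22 fits without 1 of the mice. The other 2 fibroblast markers did not rise with DHT in KO, where *Col1a1* gave −1.35 ± 0.35 (edgeR adjusted p = 0.014) and *Pdgfra* −0.25 ± 0.084 (edgeR adjusted p = 0.061), neither called, and the list median was −0.25. In WT *Col1a1* gave −0.05 ± 0.35 with DHT (edgeR adjusted p = 0.95). With DHT in WT *Pecam1* was higher by 0.33 ± 0.072 (edgeR adjusted p = 0.0019), a call lost without WT-DHT mice 39KR and 50KR (edgeR adjusted p = 0.012), and *Pdgfra*, of fibroblasts, was lower at −0.44 ± 0.084 (edgeR adjusted p = 0.00045). After ORX in WT *Csf1r* gave −0.31 ± 0.070 (edgeR adjusted p = 0.0041), a call lost in 6 of 23 such fits, while the macrophage markers *Cd68* (0.12 ± 0.14, edgeR adjusted p = 0.68) and *Adgre1* (0.06 ± 0.12, edgeR adjusted p = 0.85) were not called and the list median was 0.06. For KO-sham against WT-sham *Csf1r* gave −0.29 ± 0.071 (edgeR adjusted p = 0.0075), a call lost in 8 of 23. In edgeR, 1 of 3 fibroblast markers was called for ORX in WT (5.45% of all genes), 2 for DHT in WT (11.3%) and 1 for DHT in KO (4.62%). That for ORX in WT was a lower *Pdgfra*, a call lost in 17 of 23 fits that each left out 1 mouse. Of the macrophage markers, 1 of 3 was called for ORX in WT and for KO-sham against WT-sham (5.30%), and 1 of 3 endothelial markers for DHT in WT. DESeq2 called 2 fibroblast markers for KO-sham against WT-sham, where edgeR and limma-voom called 0, and 2 endothelial markers for DHT in WT. The skeletal muscle markers held calls in 7 of the 10 comparisons, among them 2 lower for KO-sham against WT-sham. The part of these markers in the *Mybph* differences was not tested. Adipocyte, Schwann cell, erythrocyte, smooth muscle and cardiac markers held 0 calls in edgeR, DESeq2 and limma-voom, with 6, 1, 10, 0 and 0 unadjusted p-values under 0.05 over the 10 comparisons. Of the 4 cardiac markers only *Myh6* had a row, at group medians of 0.678 to 2.33 CPM, and *Nppa*, *Tnni3* and *Mybpc3* had none.

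The genes most like *Mybph* were sought among the 16642 genes with rows in both tables, by Pearson's r of log2 CPM over the 45 libraries after centering each experiment. The highest were *Adora1* (r = 0.943), which may share reads with *Mybph*, *2310016D23Rik* (0.933), *Gstm2* (0.929), *Golga7b* (0.927), *Ndufaf5* (0.915), *Gstk1* (0.915), *Lsm6* (0.911) and *Ivd* (0.907). *Gstm2* and *Gstk1* encode glutathione transferases, *Ndufaf5* an assembly factor of respiratory complex I, and *Ivd* a dehydrogenase of leucine breakdown. *Gstm2* differed by 1.49 with ORX in WT and by −2.51 with DHT in WT on the log2 scale. The lowest were *Gm12240* (−0.949), *Spns2* (−0.930), *Odc1* (−0.927) and *Gm7993* (−0.926), and *Odc1* encodes ornithine decarboxylase, an enzyme of polyamine synthesis. *Mybpc1* (0.100) and *Mybpc2* (−0.321) were far from either end. The libraries fall into groups by design, so these values describe the group differences more than the mice within a group. Of the 8 highest genes, 3 were among the 8 highest by Spearman's rho and 2 by r over the group means.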

How the data were processed

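Read counts per gene were analysed for 45 of 46 described samples, 23 libraries in the ORX and 22 in the DHT experiment, each mouse as a replicate. The deposited values are counts, made by the authors with RNASik (STAR 2.7.1b, Picard 2.20.2, SAMtools 1.9 and featureCounts of Subread 2.0.0) on GRCm39. In the DHT experiment, columns could be assigned to a group but not to a single labelled sample. Of 17859 gene identifiers, 17774 matched GENCODE M21 (GRCm38), which was used for names, lengths and coordinates.

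Each experiment was fitted with a mean per group in edgeR 4.0.16 (R 4.3.3; TMM, quasi-likelihood F tests, Benjamini-Hochberg adjustment over all genes of a comparison). The code was tested on simulated data. Requiring 0.5 CPM in 2 or more libraries removed 0 genes, and log2 CPM used a prior count of 2. The SE of a log2 fold change is its size divided by the square root of F, and the 95% interval follows from it. Total counts per library are given above, and libraries of a group differed beyond counting noise, with chi-squared per degree of freedom of 9.13 to 630.51 between pairs, the highest in WT-DHT. Named genes are the members, *Actn3*, at most 4 called genes of each list by smallest p, the genes near *Mybph* and the 8 most and 4 least like it. The members and lists were chosen with earlier results of these data known. Alternatives were DESeq2 1.42.0, limma-voom (limma 3.58.1), no filter, a minimum of 10 counts in every library, library-size scaling, a fit of only the groups compared, a replicate block (ORX), *Mybph* and *Adora1* summed, a threshold of 0.05, other measures of likeness and leaving out each mouse. Leaving out WT-DHT mice 39KR and 50KR together was chosen after seeing the data. Tables were handled with Python 3.11.15 and pandas 2.3.3, and figures drawn with matplotlib 3.10.9. *Chrng* and *Adora3*, which have no row, were left out of their lists. Protein, muscle mass and contraction were not analysed here.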

Additional observations from a re-analysis of the deposited data

Results flagged for a closer look

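In KO-sham, *Adora1* had 3.54 CPM (3.5368) in replicate 4, far from the other mice, of which the next had 1.99 CPM, a gap of 0.81 of the whole range of the 6 mice. It was the only 1 of 32 sets of a gene and a group whose end mouse passed the 95% limit for such a gap, a limit that chance alone passes in about 1 of 20 groups. Without that mouse *Adora1* differed by 0.96 ± 0.23 between KO-sham and WT-sham (edgeR adjusted p = 0.0072), by 1.22 ± 0.22 between KO-ORX and KO-sham (edgeR adjusted p = 0.00075) and by −1.21 ± 0.30 in the ORX interaction (edgeR adjusted p = 0.11). All 3 results kept their direction and side of the threshold.

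The DHT response of *Adora1* differed between the genotypes, at −2.64 in WT and −0.53 in KO, an interaction of 2.10 ± 0.30 (edgeR adjusted p = 0.00012). The exons of *Adora1* and *Mybph* overlap, and the part of *Mybph* reads in this difference was not tested.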

How the results depend on the processing

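The *Mybph* differences kept their direction and stayed within the spread between mice in 78 of 78 fits outside those leaving out a single mouse. *Adora1* kept direction and side of the threshold in 66 of 68 and *Mybpc1* and *Mybpc2* in 65 of 68 each. These counts include fits with no filter in all 10 comparisons. The filter had removed no genes, so those fits repeat the main fit and always count as kept. For *Mybph* the count also includes fits of its row summed with that of *Adora1*. A threshold of 0.05 was left out of these counts. It would call *Mybpc2* for KO-empty against WT-empty (edgeR adjusted p = 0.039) and KO-DHT against WT-DHT (edgeR adjusted p = 0.029). For *Adora1*, limma-voom gave 1.19 for KO-sham against WT-sham (limma-voom adjusted p = 0.018), no longer called, and DESeq2 gave −1.44 for the ORX interaction (DESeq2 adjusted p = 0.0047), now called. With library-size scaling the sign turned for *Mybpc2* in the ORX interaction (0.0238) and with DHT in WT (−0.0307), and for *Mybpc1* with DHT in WT (−0.0317), where limma-voom gave −0.0348. Leaving out WT-DHT mice 39KR and 50KR, chosen after seeing the data, turned *Mybpc2* with DHT in WT (−0.0151) and *Mybpc1* in KO-DHT against WT-DHT (−0.149). The cause was not tested.

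At a threshold of 0.05, which by construction calls more genes, 1735 were called for ORX in WT, 1925 for ORX in KO, 1838 for KO-sham against WT-sham, 1260 for KO-ORX against WT-ORX, 3078 for DHT in WT, 1840 for DHT in KO, 1557 for KO-empty against WT-empty and 3170 for KO-DHT against WT-DHT. A fit of only the groups compared, with fewer samples, called 484 for ORX in KO, 498 for DHT in KO and 289 for KO-empty against WT-empty. DESeq2 called 127 and limma-voom 10 in the ORX interaction, where edgeR called 4, and DESeq2 called 1201 for DHT in KO, where edgeR called 784. The cause of these differences between tools was not tested. The replicate block called 934, 914, 921, 627 and 5 genes in the ORX comparisons, and correlations between mice of the same number ran from −0.15 to 0.188. Library-size scaling moved the median of all genes to 0.121 for ORX in KO.

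Leaving out each mouse gave 0.91 to 1.22 for *Adora1* with ORX in KO, which was not called without KO-sham replicate 1 (edgeR adjusted p = 0.0103), 2 (0.0131), 3 (0.0145), 5 (0.0109) or 6 (0.0129) or without KO-ORX replicate 1 (0.0105), 3 (0.0128) or 4 (0.0204). It gave −1.57 to −1.21 for *Adora1* in the ORX interaction, called without WT-ORX replicate 2 (edgeR adjusted p = 0.027), and −0.27 to −0.20 for *Mybpc2* in KO-DHT against WT-DHT, called without WT-DHT mouse 5KR. The *Mybph* difference between KO-ORX and WT-ORX ran from −0.0111, without WT-ORX replicate 2, to 0.14. Uncalled values near 0 turned sign, from −0.0028 to 0.07 for *Mybpc2* with ORX in KO, −0.098 to 0.0216 in its ORX interaction and −0.0196 to 0.077 in its DHT interaction, and from −0.14 to 0.11 for *Mybpc1* with DHT in WT and −0.0873 to 0.17 in KO-DHT against WT-DHT. Genes called ran from 589 to 1116 for ORX in KO, 2 to 38 in the ORX interaction and 450 to 700 for KO-empty against WT-empty. Past a fixed limit on the ratio of counts, DESeq2 moved 10 of 70 list counts, limma-voom 4, library-size scaling 14, the filter of 10 counts 1, no filter 0 and the 0.05 threshold 17, while the fit of only the groups compared moved 13 of 56, the replicate block 4 of 35 and leaving out 39KR and 50KR 4 of 35. Without 39KR and 50KR, 48 of 57 calls of listed and marker genes in the DHT experiment were kept, 9 lost and 4 gained. Leaving out each mouse moved 24 of these 70 counts in some fit, and of 102 calls of listed and marker genes 64 were kept in every such fit and 38 lost in at least 1. *Adora1* had as few as 23 counts in a library, which limits its precision.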
